A study of Mus musculus with 4 samples.

Results

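The 292 promoter peaks of RREB1-3V5 described here were listed more than 100 bp from the assigned nearest transcription start, that of a protein-coding gene. They were taken from the 1 deposited ChIP-seq table as the rows whose annotation was a promoter, whose gene type was protein-coding and whose distance to the start, in either direction, was above 100 bp. They made up 292 of 1933 rows (15.1%) and 292 of the 636 protein-coding promoter rows (45.9%). The other 344 promoter rows lay within 100 bp and are called core promoter peaks, and 215 peaks in the first intron of a protein-coding gene served as a second comparison. The promoter class of the annotation reached from 1000 bp upstream to 100 bp downstream of an annotated start.

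RREB1 was precipitated through its V5 tags from cerebella of mice 3 weeks old of the line Tg(PCP2-Rreb1/3V5)20/J, which expresses the V7 transcript of Rreb1 with 3 V5 tags from the PCP2 promoter of Purkinje cells on a C57BL/6J background. The 2 ChIP libraries came from 1 female and 1 male that were not pooled, and the 2 input libraries were aliquots of the same lysates. All 4 libraries carried the transgene and the lysate held the whole cerebellum, so no library without the tagged protein was compared here. The table is a merged list with 1 row per gene and holds no read count, peak height or replicate. Of its rows 1911 of 1933, and 288 of the 292, gave a position 1 bp wide in place of a peak's extent. Peak numbers in the list ran up to 3043, and 1110 of them had no row. A number next to the peak's own was missing for 50.7% of the peaks described here, 52.3% of core promoter peaks and 67.0% of first-intron peaks. Depth and the agreement between the animals are unknown, no value per animal can be given, and every interval given here reflects the counting of peaks alone.

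RREB1 is a zinc finger transcription factor first described through Ras-responsive promoter elements. Promoters of widely expressed genes usually lie in CpG islands, which are stretches of high GC content in which the CpG dinucleotide is not depleted. Such promoters often hold GC boxes, which SP and KLF proteins bind, CCAAT boxes, which NF-Y binds, and sites of ETS proteins and NRF1. E-boxes of the NeuroD type are bound by basic helix-loop-helix proteins such as NEUROD1, which drives granule neuron differentiation in the cerebellum.

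The promoter peaks beyond 100 bp lay in CpG-rich promoter sequence with GC boxes and CCAAT boxes, and few of them held the E-box that marked the first-intron peaks. Within 200 bp centred on the listed position, 200 of 292 (68.5%) were CpG-rich, 146 (50.0%) held a GC box, 132 (45.2%) a CCAAT box and 15 (5.14%) the NeuroD-type E-box. Their windows were less often CpG-rich than those of core promoter peaks, which lie nearer to the start. Read from the start up to 550 bp upstream, the promoters of their genes had the higher CpG-rich share. Those distances include the ones at which these peaks were chosen. Sequences of both kinds of window follow.

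Windows of 200 bp centred on the listed positions are printed first for Neurod1, Barhl2 and Tuba1a, which are genes of granule neurons and of the microtubule system, and for Rad21, the cohesin subunit, which lies close to the limit. Arntl, the core clock factor, held the most CCAAT boxes of all 292 windows, 5, and Plrg1, a splicing factor, the most GC boxes, 8, and both were chosen after their values were seen. Positions are mm10, the sequence is that of the RefSeq GRCm38 reference on the strand of the gene, and capitals mark 3 motifs read on either strand, the GC box GGGCGG, the CCAAT box of those 5 letters and the ETS site CCGGAA.
Neurod1, chr2:79456774-79456973, minus strand: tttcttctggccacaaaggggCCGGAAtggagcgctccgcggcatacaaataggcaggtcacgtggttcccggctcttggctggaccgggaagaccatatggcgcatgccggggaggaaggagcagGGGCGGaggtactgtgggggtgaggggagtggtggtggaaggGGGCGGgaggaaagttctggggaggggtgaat
Barhl2, chr5:106458690-106458889, minus strand: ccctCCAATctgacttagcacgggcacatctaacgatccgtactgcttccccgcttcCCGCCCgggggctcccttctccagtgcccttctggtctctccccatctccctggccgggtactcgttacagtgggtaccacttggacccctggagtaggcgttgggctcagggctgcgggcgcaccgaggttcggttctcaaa
Tuba1a, chr15:98953545-98953744, minus strand: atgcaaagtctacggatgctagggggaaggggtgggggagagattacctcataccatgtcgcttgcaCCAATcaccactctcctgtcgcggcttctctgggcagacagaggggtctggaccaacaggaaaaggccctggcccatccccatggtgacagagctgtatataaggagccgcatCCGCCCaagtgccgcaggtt
Rad21, chr15:51991763-51991962, minus strand: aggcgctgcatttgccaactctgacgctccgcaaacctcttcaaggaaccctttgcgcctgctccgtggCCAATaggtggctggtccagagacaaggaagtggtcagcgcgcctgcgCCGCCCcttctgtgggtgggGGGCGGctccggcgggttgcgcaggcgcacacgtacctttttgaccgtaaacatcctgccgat
Arntl, chr7:113207185-113207384, plus strand: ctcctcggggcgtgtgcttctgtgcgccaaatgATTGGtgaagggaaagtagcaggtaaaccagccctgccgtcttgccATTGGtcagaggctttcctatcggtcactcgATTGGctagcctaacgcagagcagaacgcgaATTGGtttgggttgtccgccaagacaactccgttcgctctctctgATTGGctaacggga
Plrg1, chr3:83055296-83055495, plus strand: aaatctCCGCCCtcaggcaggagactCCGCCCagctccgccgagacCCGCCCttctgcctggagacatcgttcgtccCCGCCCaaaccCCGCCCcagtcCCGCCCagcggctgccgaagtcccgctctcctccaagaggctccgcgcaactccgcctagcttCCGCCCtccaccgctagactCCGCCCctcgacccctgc

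The windows differed in kind. The Neurod1 window, 238 bp upstream of the start, held 2 GC boxes and 1 ETS site but no NeuroD-type E-box, and its GC content was 63.5%. The Arntl window repeated the inverted CCAAT box along its length with no GC box. The Tuba1a window, 144 bp upstream of the gene of a neuronal alpha-tubulin, held 1 CCAAT box and 1 GC box at 58.0% GC, but its observed over expected CpG ratio of 0.417 kept it out of the CpG-rich class.

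The NeuroD-type E-box is shown next because it was the motif that separated these peaks most clearly from first-intron peaks. Against core promoter peaks its share did not differ detectably, at 15 of 292 (5.14%) against 11 of 344 (3.20%). Windows centred 400 bp farther from the start held it in 9 of 292 (3.08%, adjusted exact p = 0.452, two-sided exact McNemar test). Over all promoters, read upstream of the start, 3.58% of windows held it, given without a test. Whether RREB1 binds at the matches printed below was not tested. Of the 12 promoter peaks beyond 100 bp with the E-box nearest to the listed position, 11 are given as 60 bp around the match, nearest first, on the strand of the gene. Capitals mark CCATCTG or its complement CAGATGG.
Trim72, chr7:128003894-128003953, plus strand: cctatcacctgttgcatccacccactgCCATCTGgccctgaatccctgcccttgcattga
Hsd11b1, chr1:193242500-193242559, minus strand: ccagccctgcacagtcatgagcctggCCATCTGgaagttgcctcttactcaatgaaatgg
Eif4e3, chr6:99667097-99667156, minus strand: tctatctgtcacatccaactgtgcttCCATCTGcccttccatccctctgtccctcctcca
Mnd1, chr3:84155882-84155941, minus strand: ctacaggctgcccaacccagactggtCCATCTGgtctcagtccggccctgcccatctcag
B4galt5, chr2:167349291-167349350, minus strand: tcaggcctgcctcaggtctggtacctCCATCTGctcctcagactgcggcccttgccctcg
Smarca4, chr9:21615838-21615897, plus strand: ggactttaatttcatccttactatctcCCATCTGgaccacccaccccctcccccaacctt
Lingo1, chr9:56636560-56636619, minus strand: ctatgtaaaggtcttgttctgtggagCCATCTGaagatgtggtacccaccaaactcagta
Xirp1, chr9:120024309-120024368, minus strand: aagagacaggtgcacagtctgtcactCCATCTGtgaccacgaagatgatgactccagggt
Pcm1, chr8:41239403-41239462, plus strand: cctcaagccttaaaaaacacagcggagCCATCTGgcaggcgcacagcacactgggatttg
Vps18, chr2:119288437-119288496, plus strand: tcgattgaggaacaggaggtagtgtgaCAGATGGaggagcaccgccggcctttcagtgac
Mrpl11, chr19:4961986-4962045, plus strand: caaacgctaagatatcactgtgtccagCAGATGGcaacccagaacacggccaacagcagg

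The E-box of Trim72, which codes for a membrane repair protein, began the list with its centre on the listed position, and that of Hsd11b1, the enzyme that regenerates glucocorticoids, lay 2 bp away. The matches of Eif4e3, an mRNA cap-binding protein, Mnd1, a factor of meiotic recombination, B4galt5, a galactosyltransferase, and Smarca4, the BRG1 ATPase of the SWI/SNF complex, lay 10, 13, 17 and 22 bp away. Those of Lingo1, a neuronal leucine-rich repeat receptor, Xirp1, an actin-binding protein of muscle, Pcm1, a centriolar satellite protein, Vps18, a subunit of CORVET and HOPS, and Mrpl11, a mitochondrial ribosomal protein, lay 33, 43, 50, 65 and 67 bp away. Riok3, Hlcs and Ctnna2 completed the 15 peaks with a match. The median offset over the 15 was 33 bp, 7 matches lay within 25 bp, and 11 read on the strand of the gene. Of the 15, 7 (46.7%) lay in CpG-rich sequence, against 193 of the 277 peaks without the E-box (69.7%), with an odds ratio of 0.385 (0.140 to 1.06, p = 0.0847, two-sided Fisher's exact test).

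The peaks crowded toward the start. The median distance was 181.5 bp with an interquartile range of 135.25 to 292.5 bp. Of the 292, 160 (54.8%) lay up to 200 bp upstream, 96 (32.9%) farther and up to 500 bp, and 23 (7.88%) beyond 500 bp. The nearest to the limit were those of Ccdc117 and Timm50, 1 bp past it, Tbc1d31, 2 bp past it, Rad21 and Zfp12, 3 bp past it, and 2310057M21Rik, 4 bp past it. Just outside it, Daam1, Dnttip2, Hs3st1, Pigm and Zfc3h1 had core promoter peaks 100 bp upstream. The farthest were those of Lnpep, an aminopeptidase, at 994 bp, Bhlhe41, a basic helix-loop-helix repressor of the clock, at 936 bp, Lingo1 at 909 bp, Fbxl19, an F-box protein with a CpG-binding domain, at 883 bp, Nova1, a neuronal splicing regulator, at 851 bp and Ankhd1 at 802 bp.

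**Figure D1:**
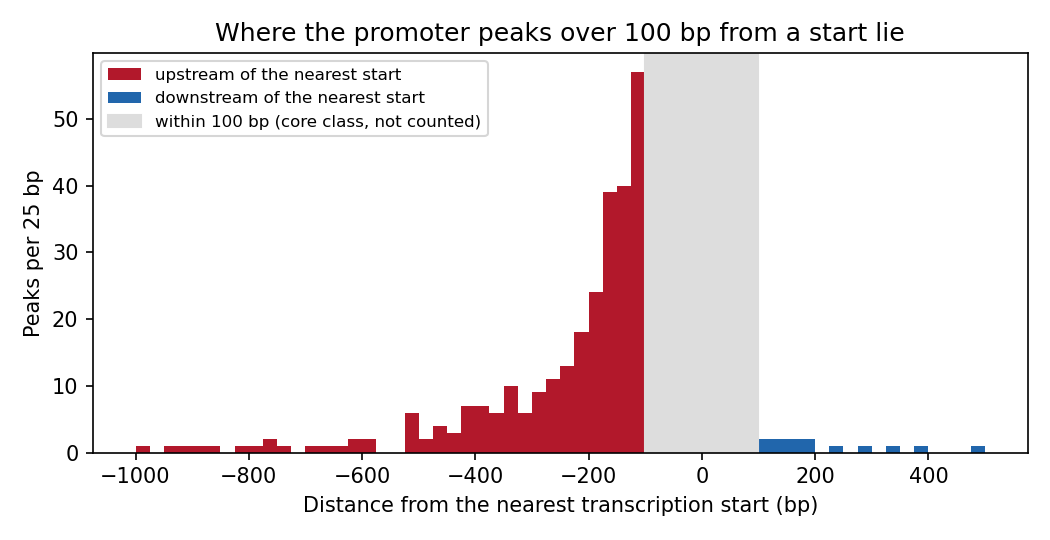
Number of promoter peaks beyond 100 bp (vertical axis, per 25 bp) by distance from the nearest transcription start (horizontal axis, bp, negative upstream), with the excluded 100 bp on either side in grey. Counts fall with distance upstream, with 160 peaks up to 200 bp and 23 beyond 500 bp, and 13 peaks lie downstream.

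Upstream did not hold for every member. In 13 of the 292 the listed position lay downstream of the nearest start by the deposited distance, by 104 bp in Cdca2 up to 486 bp in Mphosph9. In these the promoter annotation came from another transcript than the nearest one. These were Cdca2, Mmp16, Txndc16, Dhx38, Oard1, Zranb3, Rbm43, Kbtbd8, Riok1, Pgap2, Cbx5, Bcl2l1 and Mphosph9. By the nearest curated start of the reference, the Mmp16 position lay 74 bp upstream. In the curated RefSeq transcripts of the reference, 253 positions lay outside every transcript, 18 in an intron, 19 in a noncoding exon or an untranslated part of an exon, and 2 in a coding exon. One of those 2 was Kcnn2, which codes for a calcium-activated potassium channel and was listed 756 bp upstream of 1 start but lay 65 bp from another curated one.

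The distance also depended on the annotation. A further RefSeq start, predicted transcripts included, lay within 100 bp of 71 positions (24.3%), a curated one within 100 bp of 6, and a GENCODE start within 100 bp of 63 (21.6%). Either kind was present at 113 of the 292 (38.7%). In 57 of the 292 a RefSeq start of the same gene lay within 100 bp. A curated start of another gene on the opposite strand lay within 1000 bp of 37 positions (12.7%), against 84 of 344 core promoter peaks (24.4%). That last difference is given without a test, since the distance to the nearest start chose the classes. Derl2 and Mis12, a pair of divergent genes, both had a listed position and these lay 46 bp apart, so their windows share most of their sequence.

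Composition differed between the promoter peaks and the first-intron peaks. The annotation chose both classes, and first introns without a peak were not read. In the tests against first-intron peaks, a trait of the peaks therefore cannot be told apart from one of promoters or introns at large. The median GC content within 200 bp was 60% in promoter peaks beyond 100 bp, 62.0% in core promoter peaks and 54.0% in first-intron peaks. The median observed over expected CpG ratio was 0.698 in promoter peaks beyond 100 bp, 0.806 in core promoter peaks and 0.178 in first-intron peaks. Sequence was called CpG-rich where GC was at least 50% and that ratio at least 0.6. By this measure 200 of 292 (68.5%, Wilson 95% interval 63.0 to 73.6) promoter peaks beyond 100 bp were CpG-rich, against 8 of 215 first-intron peaks (3.72%, 1.90 to 7.17). The odds ratio was 52.9 (25.5 to 110, adjusted exact p = 8.03e-55, two-sided Fisher's exact test with Benjamini-Hochberg adjustment over 60 tests).

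Of the 20 sequence features compared with first-intron peaks, 15 (75.0%) passed an adjusted p of 0.05, 8 higher and 7 lower in promoter peaks beyond 100 bp. The higher ones were those of CpG island promoters. The GC box stood in 146 of 292 (50.0%) against 17 of 215 (7.91%), with an odds ratio of 11.3 (6.61 to 19.5, adjusted exact p = 4.68e-25). The CCAAT box stood in 132 (45.2%) against 56 (26.0%), with an odds ratio of 2.33 (1.59 to 3.41, adjusted exact p = 4.28e-05), and the ETS site in 54 (18.5%) against 13 (6.05%), with an odds ratio of 3.43 (1.84 to 6.40, adjusted exact p = 1.03e-04). The NRF1 site GCATGCG stood in 18 (6.16%) and in 0 of 215 first-intron peaks, which allows a share of up to 1.40% by 3 counts of the total and of 1.76% by the Wilson interval (adjusted exact p = 1.33e-04). GC at or above 60% was likewise higher. The CRE motif TGACGT (adjusted exact p = 0.0489) and the CTCF core AGGGGGC (adjusted exact p = 0.0499) were higher by a narrow margin.

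The NeuroD-type E-box was the clearest of the lower ones. It was chosen with the study's NEUROD1-like motif from this same set of peaks known, so its test is not independent of that choice. The E-box stood in 15 of 292 promoter peaks beyond 100 bp (5.14%, 3.14 to 8.30) against 47.0% (40.4 to 53.6) of first-intron peaks. The odds ratio was 0.063 (0.035 to 0.112, adjusted exact p = 3.24e-28, two-sided Fisher's exact test). The shorter CAGATG, which lies inside it, stood in 29 (9.93%) against 116 (54.0%). Motifs of other factors were also lower, with the NFI motif TTGGCA in 25 (8.56%) against 75 (34.9%), the ZIC site CAGCAGG in 18 (6.16%) against 41 (19.1%) and the AP-1 site TGANTCA in 8 (2.74%) against 24 (11.2%). The MyoD-type E-box CAGCTG and the TATA box TATAAA completed the 7. The core of the RREB1 matrix, AACCACC, stood in 6 (2.05%) against 7 (3.26%), with an odds ratio of 0.631 (0.217 to 1.83, adjusted exact p = 0.559).

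**Figure D2:**
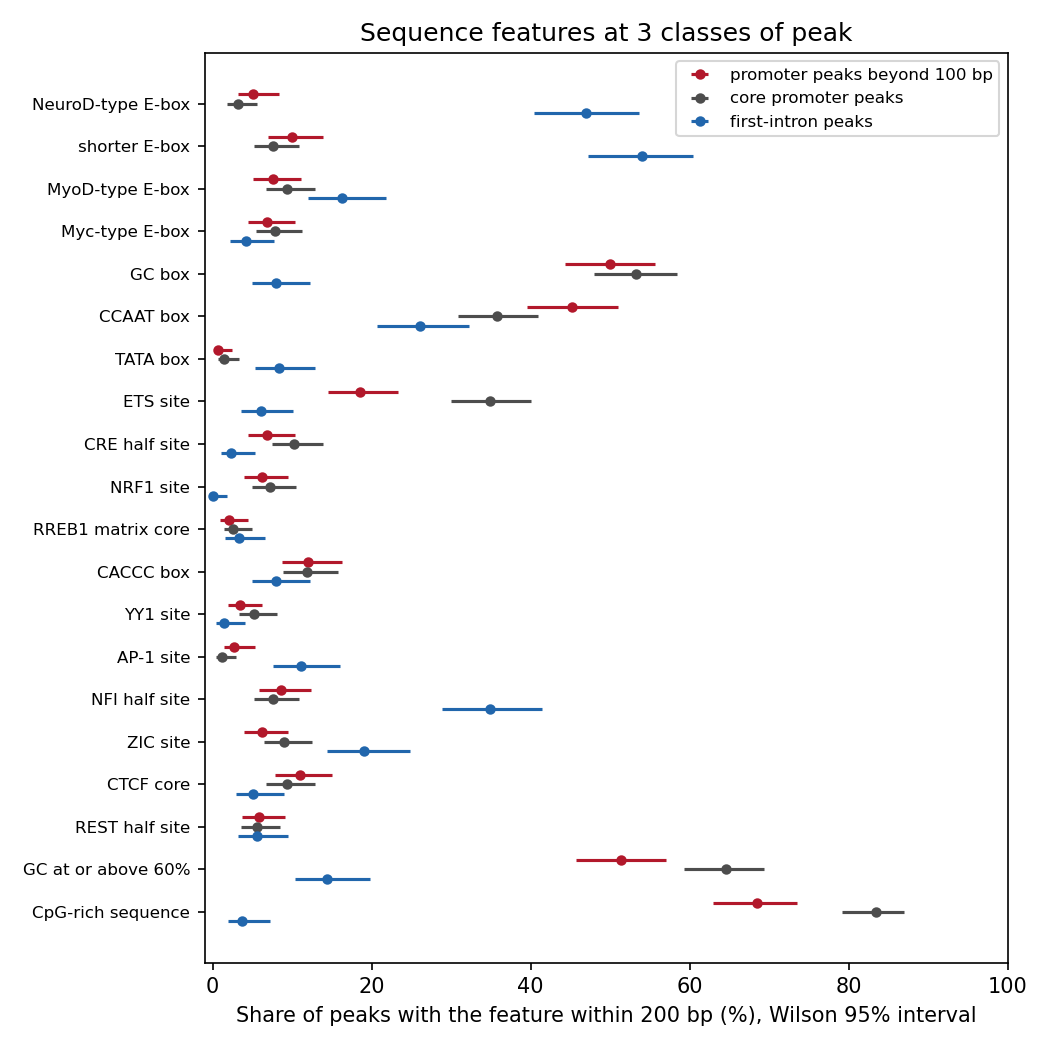
Share of peaks with each of 20 sequence features within 200 bp (horizontal axis, percent, with Wilson 95% intervals) in promoter peaks beyond 100 bp, core promoter peaks and first-intron peaks. Promoter peaks of both classes stand at 68.5% and 83.4% CpG-rich against 3.72% of first-intron peaks, while the E-box stands at 5.14% and 3.20% against 47.0%.

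Fewer features passed against core promoter peaks, 4 of the 20 (20.0%). Since the rule cut the classes by distance, class and distance from the start cannot be told apart in these tests. CpG-rich sequence held 200 of 292 (68.5%) against 287 of 344 (83.4%), with an odds ratio of 0.434 (0.298 to 0.631, adjusted exact p = 4.85e-05). GC at or above 60% held 150 (51.4%) against 222 (64.5%), with an odds ratio of 0.581 (0.423 to 0.799, adjusted exact p = 0.00251). The ETS site stood in 54 (18.5%) against 120 (34.9%), with an odds ratio of 0.426 (0.295 to 0.615, adjusted exact p = 1.54e-05). The CCAAT box was the 1 feature above the core level, in 132 (45.2%) against 35.8%, with an odds ratio of 1.48 (1.08 to 2.04, adjusted exact p = 0.0427). That call was lost with a window of 100 bp (odds ratio 1.02, adjusted exact p = 1.00), with a limit of 50 bp (odds ratio 1.04, adjusted exact p = 0.872) or 200 bp (odds ratio 1.20, adjusted exact p = 0.592) and in most other settings.

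The promoters of the genes themselves were also read at equal distances from the reference start, as a description with no test. CpG-rich sequence was found at the start in 87.7% of the 292 genes with a promoter peak beyond 100 bp, against 83.7% of the 344 genes with a core promoter peak. At 150 bp upstream the shares were 69.2% and 53.5%, at 250 bp 54.5% and 33.7%, and at 550 bp 19.9% and 13.1%. So the CpG-rich share at these distances was higher in the genes with a promoter peak beyond 100 bp. That is the other direction from the peak windows. The steps upstream lie where the peaks of these genes were chosen and away from the core promoter peaks, so gene and peak position cannot be told apart. In the 160 genes with a peak up to 200 bp upstream, the share was 63.8% at 150 bp and 46.9% at 250 bp, above the core genes. At 550 bp it was 10.6%, below their 13.1%. Over all 292 genes the GC box stood in 67.5% against 52.9% at the start and in 53.8% against 37.8% at 150 bp. The ETS site stood in 19.9% against 33.1% at the start, but in 17.5% against 18.6% at 150 bp and in 13.7% against 11.0% at 250 bp.

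The GC box stood at 50.0% against 53.2% in core promoter peaks, with an odds ratio of 0.880 (0.644 to 1.20, adjusted exact p = 0.569). The NeuroD-type E-box stood in 15 of 292 (5.14%) against 11 of 344 (3.20%), with an odds ratio of 1.62 (0.743 to 3.53, adjusted exact p = 0.401), so a difference was not detectable with these numbers, and the interval reached up to 3.53. At least 2 GC boxes stood in 63 promoter peaks beyond 100 bp (21.6%) and 88 core promoter peaks (25.6%), and at least 2 CCAAT boxes in 37 (12.7%) and 45 (13.1%). Both a GC box and a CCAAT box stood in 69 of the 292 (23.6%). None of the 18 motifs was found in 25 (8.56%). Usp32, a ubiquitin-specific protease, held the most kinds, 7.

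The distance from the start itself changes promoter sequence, so the shares were set beside those of all promoters over similar distances, for 21774 protein-coding genes of the reference. All promoters were read at steps of 100 bp from the most upstream start of each gene, curated where there was one, with equal weight per step. The distances match only roughly, since the peaks crowd toward the start and are measured from the nearest one. Up to 200 bp upstream 72.5% of the peaks were CpG-rich, where 35.7% of all promoters were. From there to 500 bp the shares were 62.5% and 18.1%, and beyond 500 bp they were 60.9% (40.8 to 77.8, 14 of 23) and 5.91%. The GC box stood in 56.2% of the peaks and 31.9% of all promoters up to 200 bp, in 44.8% and 14.1% from there to 500 bp, and in 26.1% and 6.07% beyond 500 bp. The CCAAT box stood in 47.5% and 30.2%, then 42.7% and 23.9%, then 34.8% and 24.8%. The NeuroD-type E-box stood in 3.75% and 3.04%, then 7.29% and 3.44%, then 8.70% and 3.78%. These shares are a description with no test, and all promoters include genes that the cerebellum does not use.

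**Figure D3:**
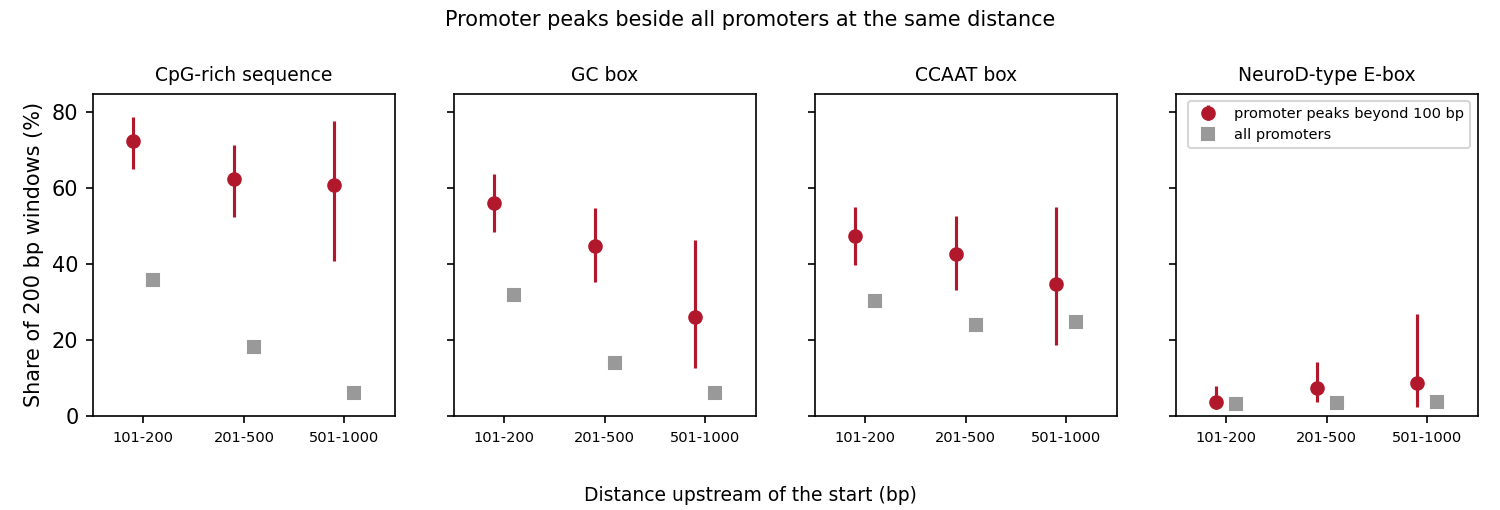
Share of 200 bp windows with each feature (vertical axis, percent) by distance upstream of the start (horizontal axis, bp) in promoter peaks beyond 100 bp, with Wilson 95% intervals, and in all promoters of protein-coding genes at steps within the same ranges. The CpG-rich share of the peaks stays between 60.9% and 72.5% while that of all promoters drops to 5.91%, and the E-box share of all promoters lies within the intervals of the peaks or just below them.

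Bhlhe41 and Lnpep show what CpG-rich sequence looks like far from the start. Their windows lay 936 and 994 bp upstream and are given as 120 bp on the strand of the gene, with each CG in capitals.
Bhlhe41, chr6:145866296-145866415, minus strand: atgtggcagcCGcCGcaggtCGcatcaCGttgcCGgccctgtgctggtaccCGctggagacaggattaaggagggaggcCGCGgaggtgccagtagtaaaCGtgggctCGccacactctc
Lnpep, chr17:17625423-17625542, minus strand: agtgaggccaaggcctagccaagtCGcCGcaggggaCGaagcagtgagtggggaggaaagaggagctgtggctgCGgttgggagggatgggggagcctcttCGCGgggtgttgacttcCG

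Both genes count among the 14 of 23 farthest peaks in CpG-rich sequence, and Bhlhe41 had an observed over expected CpG ratio of 0.996. In the far group 2 of 23 peaks (8.70%) held the NeuroD-type E-box, those of Xirp1 and Lingo1, against 6 of 160 near ones (3.75%), with an odds ratio of 2.76 (0.60 to 12.7, adjusted exact p = 0.325 by Fisher's exact test, adjusted over the 2 tests of far against near peaks alone). For CpG-rich sequence the odds ratio of far over near was 0.583 (0.240 to 1.42, adjusted exact p = 0.325). With 23 far peaks, differences of this size were not detectable. As a description with no test, each gene was also read 550 bp upstream of its reference start. There 13 of 23 (56.5%) were still CpG-rich, against 58 of all 292 genes (19.9%) and 9.53% of all promoters. That distance lies among those by which the far peaks were chosen, so this share is not independent of the peak position.

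Each window was also compared with one of the same length centred 400 bp farther from the start. Of the 20 features 9 (45.0%) passed, 8 of them higher at the peak. CpG-rich sequence was found only at the peak in 173 promoters and only in the flank in 5, the GC box in 134 and 13, the CCAAT box in 98 and 36, and the ETS site in 50 and 8. The TATA box went the other way, with 1 and 26. All promoters had slopes of the same direction between 150 and 550 bp, where CpG-rich sequence had shares of 35.7% and 9.53%, the GC box 31.9% and 8.31%, the ETS site 9.73% and 3.82%, the CCAAT box 30.2% and 23.2% and the TATA box 8.19% and 13.3%. Toward the start the genes with a promoter peak beyond 100 bp held more CpG-rich sequence and GC boxes than at the peak, as given above. This comparison therefore describes the promoter from peak to outer flank and does not show that the features sat at the peak. For the NeuroD-type E-box the counts were 14 and 8 (adjusted exact p = 0.452, two-sided exact McNemar test).

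The profile of matches around the position differed by motif. Under 25 bp from it, promoter peaks beyond 100 bp held 0.479 E-boxes per kb, from 7 matches, and 0.121 per kb at 250 to 490 bp, from 17. First-intron peaks held 4.09 and 0.310 per kb at the same distances. The CCAAT box reached 3.15 per kb under 25 bp, 3.31 at 25 to 100 bp and 1.37 at 250 to 490 bp. The GC box reached 3.56, 4.70 and 2.63 per kb. In promoter peaks beyond 100 bp these boxes were thus spread over the window rather than centred on the position.

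**Figure D4:**
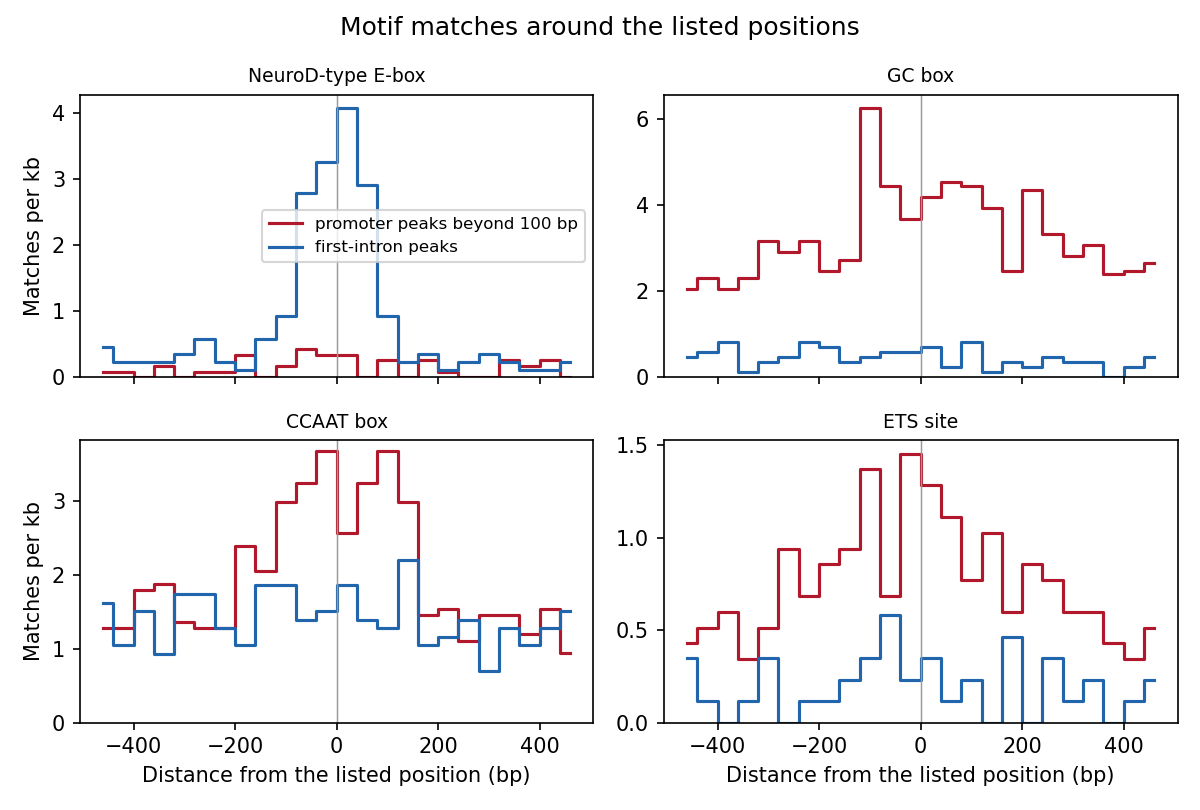
Matches per kb (vertical axis) by distance from the listed position (horizontal axis, bp along the chromosome, in 40 bp steps) for the E-box, GC box, CCAAT box and ETS site in promoter peaks beyond 100 bp and first-intron peaks. The E-box stands up sharply at first-intron positions, at 4.07 per kb in the step right of the position, against 0.342 in promoter peaks beyond 100 bp.

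The genes came from many functions. Of 15 gene groups defined by symbol, any group held 71 of the 292 genes (24.3%). Across the reference, 1.34% of protein-coding genes had a promoter peak beyond 100 bp, and among the 1639 listed protein-coding genes 17.8% had it there and 38.8% had a promoter peak of either class. The groups are given as counts beside these shares, with no test.

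Translation and mitochondrial genes had most of their listed peaks at promoters. Among ribosomal proteins and translation factors, 9 of 24 listed genes (37.5%) had a promoter peak beyond 100 bp and 83.3% one of either class. They included Rpl28, a ribosomal protein, at 108 bp, Eef1a1, the elongation factor, at 120 bp, Mrps9 of the mitochondrial ribosome at 128 bp and Tars, a tRNA synthetase, at 163 bp. For the respiratory chain and mitochondrial import it was 6 of 19 (31.6%), or 73.7% for either class. Timm50 and Timm17a of the inner membrane translocase lay 1 and 6 bp past the limit, Timm22 at 159 bp, and Atp5g1 of the ATP synthase at 355 bp. RNA processing held 7 of 23 (30.4%), with Srsf7 at 140 bp, Rbm25 at 148 bp, and Dhx38 and Rbm43, 2 of the downstream positions, at 142 and 190 bp.

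Regulators of transcription and chromatin were also present. Transcription factors of the neurogenic and granule cell kind held 5 of 14 listed genes beyond 100 bp (35.7%) and 1 within it. They included Neurod1 at 238 bp, Tcf3, the E protein partner of NeuroD factors, at 386 bp, Barhl2, a homeodomain factor of granule neuron precursors, at 624 bp and Bhlhe41. None of the 5 had the NeuroD-type E-box in the window. Chromatin regulators held 5 of 15 (33.3%) and none within 100 bp, with Rad21 at 103 bp, Chd8, a chromatin remodeler, at 164 bp, Kdm6a, a histone demethylase, at 183 bp and Smarca4 at 279 bp. Zfp and Zbtb zinc finger genes held 11 of 35 (31.4%), among them Zfp12, Zfp128, Zbtb8b and Zfp108 at 103 to 114 bp. For either class the transcription factors stood at 42.9% and the chromatin regulators at 33.3%, near the 38.8% of all listed genes. The zinc finger genes stood at 62.9%.

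Genes of Ras and MAP kinase signalling, the pathway through which RREB1 was named, held 4 of 18 (22.2%). Map3k11 lay at 108 bp, Rps6ka2 at 137 bp, Map3k14 at 172 bp and Map2k5 at 517 bp, all of them kinases. The ubiquitin and proteasome group held 9 of 44 (20.5%), with Rnf126, a ubiquitin ligase, at 109 bp, the deubiquitinases Otud1 and Otud6b at 183 and 198 bp and Fbxo5, an inhibitor of the anaphase-promoting complex, at 218 bp. Autophagy, lysosome and trafficking genes held 6 of 33 (18.2%) beyond 100 bp and 60.6% at promoters of either class. Epg5, a tether of autophagosomes, lay at 116 bp, Snx11, a sorting nexin, at 148 bp, Ap2s1 of the clathrin adaptor AP-2 at 169 bp and Vps18 at 210 bp. Beyond 100 bp these groups all stood near the 17.8% of all listed genes. For either class Ras and MAP kinase genes stood at 27.8% and ubiquitin and proteasome genes at 45.5%, against 38.8% of all listed genes.

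Genes of neuronal signalling seldom had their listed peak here. Neurotransmitter receptors and postsynaptic scaffolds held 0 of 19 listed genes, ion channels 1 of 25 (Kcnn2), and synaptic vesicle and release genes 1 of 24 (Vamp1, a vesicle SNARE, at 128 bp). Their promoter peaks of either class came to 5.26%, 12.0% and 16.7% of the listed genes. Solute carriers held 2 of 30 (6.67%), the zinc transporter Slc30a5 at 162 bp and the phosphate carrier Slc25a3 of mitochondria at 251 bp. Their share at promoters of either class was 36.7%, near the 38.8% of all listed genes. Tubulins and microtubule-associated proteins held 3 of 21 (14.3%), namely Cep120, a centriole protein, at 108 bp, Tuba1a and the beta-tubulin Tubb4a at 159 bp. Motors held 2 of 14 (14.3%), Kifap3 of kinesin-2 at 114 bp and Hook2, a dynein adaptor, at 179 bp. For either class these 2 groups stood at 38.1% and 42.9%, also near the share of all listed genes. Since the table lists each gene once, further peaks of a gene at its promoter may not be seen.

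**Figure D5:**
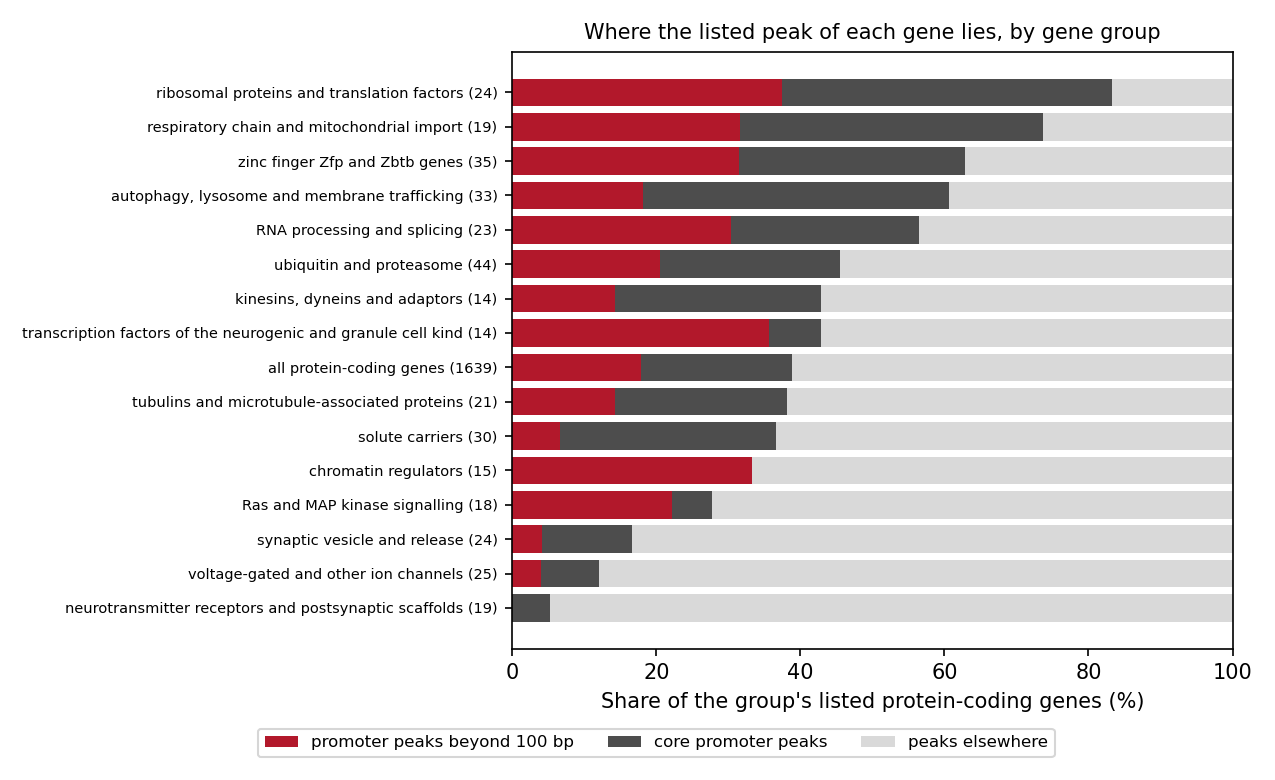
Share of the listed protein-coding genes of each group (horizontal axis, percent, number of listed genes in brackets) whose peak is a promoter peak beyond 100 bp, a core promoter peak or lies elsewhere. Ribosomal and translation genes reach 83.3% at promoters of either class and receptors and scaffolds 5.26%, against 38.8% of all listed protein-coding genes.

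Of cell type markers, 3 of 19 granule cell genes had a promoter peak beyond 100 bp, Neurod1, Barhl2 and Cbln3, a cerebellin of granule neurons, at 113 bp. The Cbln3 window held an NFI motif and no GC box, CCAAT box or E-box of the NeuroD type, at 59% GC. Of the granule list 10 of 19 genes were listed in any class, of 20 Purkinje cell genes 0 and of 16 glial genes 2. Over all protein-coding genes of the reference 7.53% were listed and 1.34% had a promoter peak beyond 100 bp. Counts of 0 and 2 in lists of this size are near the first share, and the granule counts lie above both. The lists were chosen with earlier results of these data known, so the granule counts are not independent of that choice. In the study, V5 staining found the transgene in Purkinje cells alone. No Purkinje cell or glial gene of these lists had a promoter peak beyond 100 bp. A peak does not show expression, and the share of each cell type in the signal was not tested.

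By chromosome the counts ran up to 33 on chromosome 7, or 16.3 per 1000 protein-coding genes, with 13.4 over all chromosomes and 5.19 on chromosome X. The listed position lay in a masked repeat in 13 of 292 promoter peaks beyond 100 bp (4.45%, Barhl2 and Lnpep among them), 20 of 344 core promoter peaks (5.81%) and 22 of 215 first-intron peaks (10.2%).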

How the data were processed

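V5 ChIP-seq of RREB1-3V5 was measured in cerebella of 2 animals, with 2 inputs. According to the methods, adapters were removed by fastp, Bowtie2 placed the reads on mm10, and Sambamba discarded multimappers and duplicates. The authors then ran MACS3 with a q limit of 0.05 and joined overlapping peaks of the samples by bedtools. The table carries a HOMER command in its header, and HOMER assigned each peak to a gene. Bowtie2, MACS3, bedtools and mm10 also stand in the submitters' processing notes, without versions. The deposited table gives positions, distances to the start in bp and annotations, with no score, so depth is unknown and the ChIP was not compared with input again.

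Sequence was read at each position from the RefSeq GRCm38 reference, which shares chromosome coordinates with mm10. The distance to the nearest curated RefSeq start was identical for 278 of the 292 peaks (95.2%). On either strand of each 200 bp window 18 motifs were looked for, beside GC at or above 60% and CpG-rich sequence (GC at least 50%, observed over expected CpG at least 0.6). The letters not given in the results were CACGTG for the Myc-type E-box, CCCACCC for the CACCC box, AAGATGGC for YY1 and CAGCACC for the REST motif. CAGATG lies inside the NeuroD-type E-box. Over all promoters, at steps of 100 bp from 150 to 950 bp upstream, the share of windows with a match was 3.58% for CCATCTG, 12.3% for CAGATG, 8.27% for CAGCTG, 3.13% for CACGTG, 11.6% for the GC box, 25.1% for the CCAAT box, 12.6% for the TATA box, 4.66% for the ETS site, 2.48% for the CRE motif, 1.15% for NRF1, 2.49% for the RREB1 matrix core, 8.61% for the CACCC box, 1.27% for YY1, 5.24% for AP-1, 9.35% for NFI, 5.04% for ZIC, 3.78% for the CTCF core and 3.97% for the REST motif.

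Shares were compared by two-sided Fisher's exact tests and with the flank by exact McNemar tests, adjusted by Benjamini-Hochberg over 60 tests, with the 2 tests of far against near peaks adjusted apart and the test of CpG-rich sequence by E-box not adjusted (SciPy 1.17.1, Python 3.11.15). Odds ratios and their 95% intervals have 0.5 added to each count, and peaks of neighbouring genes were treated as independent. On simulated windows with planted motifs the procedure was tested first. Genes were named by a rule: genes the study names as targets or markers, the 6 nearest and 6 farthest peaks, the 12 E-boxes nearest to a position and up to 4 genes per group. Some genes that the rule takes in are not reported here. Members, gene lists and motifs were chosen with earlier results of these data known, including the NeuroD-like motif. Alternatives covered the distance limit, window, annotation, gene types, other starts, repeats, motif, flank and adjustment, and the setting without downstream positions was added after the data were seen.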

Additional observations from a re-analysis of the deposited data

How the results depend on the processing

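Of 134 values recomputed under 12 alternative settings, 121 kept their side of the threshold or moved by less than the counting error, and none that passed the threshold reversed. The numbers of features called are among the 121 although they moved. Against first-intron peaks the number, 15 as reported, ran from 11 with a window of 100 bp to 17 with one of 400 bp. Against core promoter peaks it was 3 or 4, and against the flank 7 to 11. The E-box odds ratio over core promoter peaks ran from 0.856 to 2.33 and passed in none of them. The E-box odds ratio over first-intron peaks stayed between 0.048 and 0.096, that of CpG-rich sequence over core promoter peaks between 0.380 and 0.60, and that of the ETS site over core promoter peaks between 0.355 and 0.584. The CpG-rich share moved to 62.9% with a limit of 200 bp, to 61.6% with a window of 100 bp and to 74.3% with one of 400 bp. The E-box share moved to 3.08% with a window of 100 bp and to 9.93% with the shorter CAGATG, a shorter window and a shorter motif changing the chance of a match by construction. The CCAAT box over core promoter peaks passed as reported and with a window of 400 bp (odds ratio 1.55, adjusted exact p = 0.0139). In the other 8 settings tried for it the odds ratio was 1.02 to 1.46 without a call, and the cause was not tested.

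No paired analysis was possible because the deposited list merges both animals and holds no value per library. Leaving out each replicate was not run for the same reason. Peak height, width and depth are unknown, so strong and weak peaks counted alike. One row per gene is listed, so promoter peaks of genes listed by another peak were not analysed here. With 23 peaks beyond 500 bp, only large differences by distance were detectable.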
